A study of Homo sapiens with 8 samples.

Results

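The 42 genes described here encode the core of the TGF-beta, activin and BMP signalling pathway: 9 ligands, 4 latent binding proteins, 11 receptors and co-receptors, 6 SMADs and 12 inhibitors. They are 42 of the 19970 protein-coding genes of the RefSeq gene table. They were listed by name, with the differences between the lists in their covered bases already known, so those differences are given as a description and carry no test. Each gene was read over its RefSeq record on GRCh38 plus 5000 bases on either side, called its window here, and a base counted as covered when it lay inside a called peak.

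The study profiled H3K4me1, the monomethylated form of lysine 4 on histone H3 that marks enhancers and the flanks of active promoters, in MDA-MB-231 cells. MDA-MB-231 is an established human triple-negative breast cancer line with mesenchymal features. The groups were control cells and ARID1A knockout cells, each with 2 immunoprecipitated and 2 input samples, all from this line and with no other treatment in the labels. ARID1A is a DNA-contacting subunit of SWI/SNF, a complex that remodels chromatin. The labels give neither the way the knockout was made nor the number of clones, and a list of H3K4me1 peaks cannot check the genotype. Micrococcal nuclease was used to cut the chromatin. In the protocol text the antibody is called H3K4me3, but its label and the titles say H3K4me1, which is used here.

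Each genotype was represented by 1 deposited peak list, of 83000 peaks for the control and 73603 for the knockout. With no value per replicate there was no spread to set a difference against, so no p-value was computed and every contrast below compares these lists. Peaks were wider in the knockout list, with a median width of 1587 bases against 1386. The smallest gap between neighbouring peaks was 1445 bases in the knockout list and 1249 in the control list, so neighbouring peaks appear to have been merged over a longer distance in the knockout list. Read depth is unknown. Among the marker genes read the same way, all 6 mesenchymal markers (VIM, FN1, CDH2, ZEB1, AXL, SPARC), all 6 luminal markers (KRT8, KRT18, KRT19, ESR1, GATA3, FOXA1) and the hematopoietic markers PTPRC, CD3E, SPI1 and GATA1 had a peak in at least 1 list. A peak near these genes therefore did not separate cell types and says nothing of expression. By the call defined below, 3 mesenchymal, 1 luminal and 2 hematopoietic markers were higher in the knockout list, and 1, 3 and 0 were lower. Of all protein-coding genes 20.2% were higher and 30.0% lower, and no shift of cell state is read from so few markers.

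Ligands of this family bind pairs of type I and type II receptor kinases, and the type I receptor phosphorylates receptor SMADs, which join SMAD4 and enter the nucleus. TGF-beta and activin act mainly through SMAD2 and SMAD3, and BMPs through SMAD1, SMAD5 and SMAD9. TGF-beta itself is secreted in a latent complex held in the matrix by latent binding proteins, and the pathway is restrained by secreted traps, inhibitory SMADs, ubiquitin ligases and nuclear co-repressors. In breast cancer cells TGF-beta is known for driving migration and a mesenchymal state, and in normal epithelium for stopping growth.

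Promoters were examined first. RefSeq promoter windows, from 250 bases before to 50 bases after a start site, were at hand for 38 of the 42 genes, all but SKI, BMP2, BMP7 and NOG, and gave 77 promoters. Of these 77, 19 (24.7%) touched a control peak and 22 (28.6%) a knockout peak, against 17.5% and 25.7% of all 22131 protein-coding promoters. Both lists touched 16 of the promoters, 3 were touched in the control list alone (TGIF1, BMP4 and TGIF2) and 6 in the knockout list alone. That is 3.90% and 7.79% of the 77, below the 4.40% and 12.6% of all promoters. Those 6 belonged to BMPR1B, LTBP4, SMAD3, ACVR1, SMAD9 and BAMBI. At LTBP4 and ACVR1 the knockout peak reached only 14 and 43 bases into the window, whereas at the other 4 it covered all 300 bases and the control list covered none. The 250 bases before the start at these 4 promoters are printed below, 5′ to 3′ on the gene's own strand, from RefSeq (GRCh38.p14). Capitals mark the SMAD box (CAGAC or its complement GTCTG), the GC-rich SMAD site GGCGCC and the AP-1 site TGANTCA. The BMPR1B sequence is chr4:94995590-94995839 on the plus strand, before a start site inside the gene. The SMAD3 sequence is chr15:67125492-67125741 on the plus strand, also before an internal start. The SMAD9 sequence is chr13:36920239-36920488 on the minus strand, and the BAMBI sequence is chr10:28677271-28677520 on the plus strand.
BMPR1B: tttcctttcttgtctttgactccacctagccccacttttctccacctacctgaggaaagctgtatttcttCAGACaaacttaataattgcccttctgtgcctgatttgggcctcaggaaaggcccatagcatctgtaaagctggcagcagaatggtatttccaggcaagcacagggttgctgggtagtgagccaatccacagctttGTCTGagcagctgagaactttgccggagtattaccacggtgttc
SMAD3: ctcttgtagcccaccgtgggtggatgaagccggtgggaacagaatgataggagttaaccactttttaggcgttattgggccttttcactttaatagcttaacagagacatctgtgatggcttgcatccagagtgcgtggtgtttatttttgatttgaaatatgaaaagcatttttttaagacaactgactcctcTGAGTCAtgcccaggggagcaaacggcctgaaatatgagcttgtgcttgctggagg
SMAD9: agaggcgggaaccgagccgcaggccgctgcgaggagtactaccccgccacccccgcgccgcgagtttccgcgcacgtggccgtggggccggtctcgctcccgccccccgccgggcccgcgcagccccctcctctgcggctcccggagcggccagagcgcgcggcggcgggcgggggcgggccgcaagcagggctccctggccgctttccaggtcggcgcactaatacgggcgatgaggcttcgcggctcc
BAMBI: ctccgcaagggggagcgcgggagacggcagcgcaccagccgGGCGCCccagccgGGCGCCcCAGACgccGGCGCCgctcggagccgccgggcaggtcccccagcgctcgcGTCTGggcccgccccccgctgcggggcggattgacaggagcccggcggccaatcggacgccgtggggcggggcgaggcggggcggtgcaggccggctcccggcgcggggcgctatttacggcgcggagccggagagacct
The BMPR1B stretch held 2 SMAD boxes, 180 and 44 bases before the start, and only 2 CG dinucleotides. BAMBI held 2 SMAD boxes, 189 and 140 bases before the start, with 3 GC-rich SMAD sites and 41 CG dinucleotides. The SMAD9 stretch was as rich in CG, with 39, but held none of the capitalised motifs. SMAD3 held 1 AP-1 site, 56 bases before the start. The SMAD3 contrast rests on how peaks were joined: the stretch lies in a gap between control peaks that closes when both lists are merged over the same distance, and all 300 bases are then covered in each. For BMPR1B, SMAD9 and BAMBI the same merging left 0 control bases and 300 knockout bases.

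Over all 77 promoter windows, searched on both strands, 51.9% held a SMAD box, 26.0% a GC-rich SMAD site, 10.4% an AP-1 site and 15.6% the TEAD site GGAATG. Among all 22131 promoters the shares were 44.9%, 24.3%, 6.15% and 12.2%. The pathway's windows were richer in CG, with a median of 28 dinucleotides against 21. A match is a string of letters in the window and does not show that a factor binds there.

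Across the 42 genes, peaks covered 764756 bases (control) and 825341 (knockout), 18.8% and 20.3% of the windows. The lists shared 621208 of these bases, 64.1% of all bases covered in either. The knockout list held fewer peaks, 223 against 239, so it had more cover per peak. TGFBR3 alone gave 32382 of the 60585 bases by which the sums differed. The difference in the sum turned round when only peaks with the authors' fold enrichment of at least 4 were kept, with 389625 control and 275704 knockout bases.

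The call used here takes a gene as higher or lower where the knockout list had at least 1000 covered bases more or fewer than the control list. By that measure 22 of 42 genes were higher and 11 lower, while 9 differed by less. Of all protein-coding genes, 20.2% were higher and 30.0% lower, and of those with a peak in either list 24.0% and 35.7%. With fold enrichment of at least 4 the balance turned, to 9 higher and 13 lower, beside 14.5% and 19.4% of all protein-coding genes. The median difference was 1145 bases over the 42 genes, 0 over all protein-coding genes and -337 over those with a peak. The pathway genes had longer windows than most (median 62688 bases against 34181.5) and more cover, which gives a fixed threshold more room. Among genes averaging at least 5000 covered bases, 15 of 31 pathway genes were higher and 10 lower, beside 28.8% and 45.2% of all 8290 such genes. Nearest to the threshold, LTBP2 (1140 bases), BMP6 (1150) and GREM1 (1165) lay just above it, and SMAD1 (726), BMP4 (784) and BMPR1A (-842) just within it. All 42 genes had a peak in at least 1 list, and 2, BMP2 and FST, had one in the knockout list alone and 0 in the control list alone, beside 2.25% and 4.36% of all protein-coding genes.

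**Figure D1:**
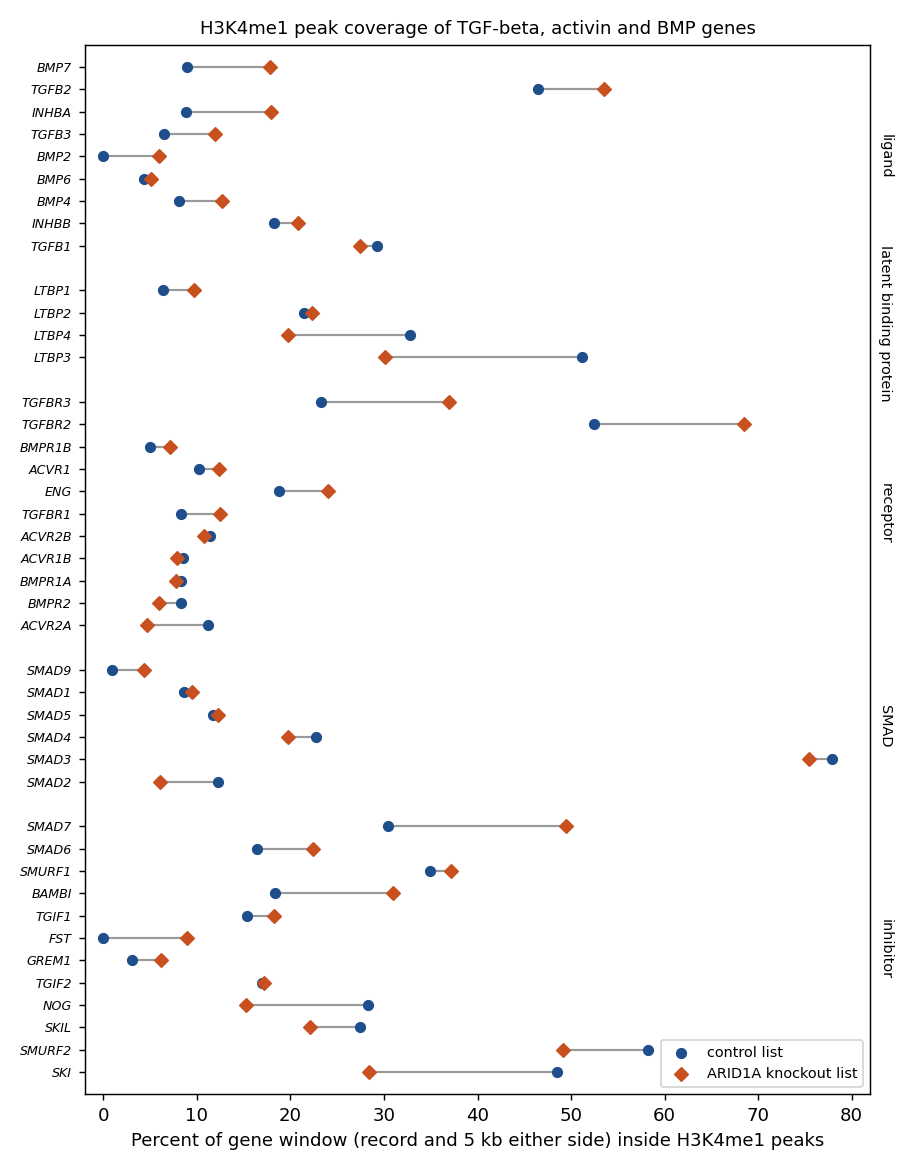
Percent of each gene's window covered by H3K4me1 peaks in the control and knockout lists, for the 42 genes grouped by role; each gene has 1 point per list, joined by a line. SMAD3 stands farthest to the right in both lists, at 77.9% and 75.5%.

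When only peaks with an authors' −log10 q of at least 5 were kept, 21 of 42 genes were higher and 8 lower, beside 26.7% and 17.7% of all protein-coding genes. Among the 12529 genes with such a peak the shares were 42.5% and 28.2%. The pathway's strong peaks numbered 66 (control) and 89 (knockout), covering 486590 and 563195 bases, and over the genome such peaks were also more numerous in the knockout list (27571 against 23884). Strong peaks were present in the knockout list alone at 8 genes (TGFB3, INHBA, BMP6, ACVR1B, ACVR2A, SMAD4, SMAD5 and GREM1) and in the control list alone at SMAD7. Of all protein-coding genes, 11.4% had strong peaks in the knockout list alone and 6.62% in the control list alone. At TGFBR1, SMAD2, SMAD9, BMP2, FST and BAMBI neither list had one, so the differences described for those 6 rest on weak peaks.

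**Figure D2:**
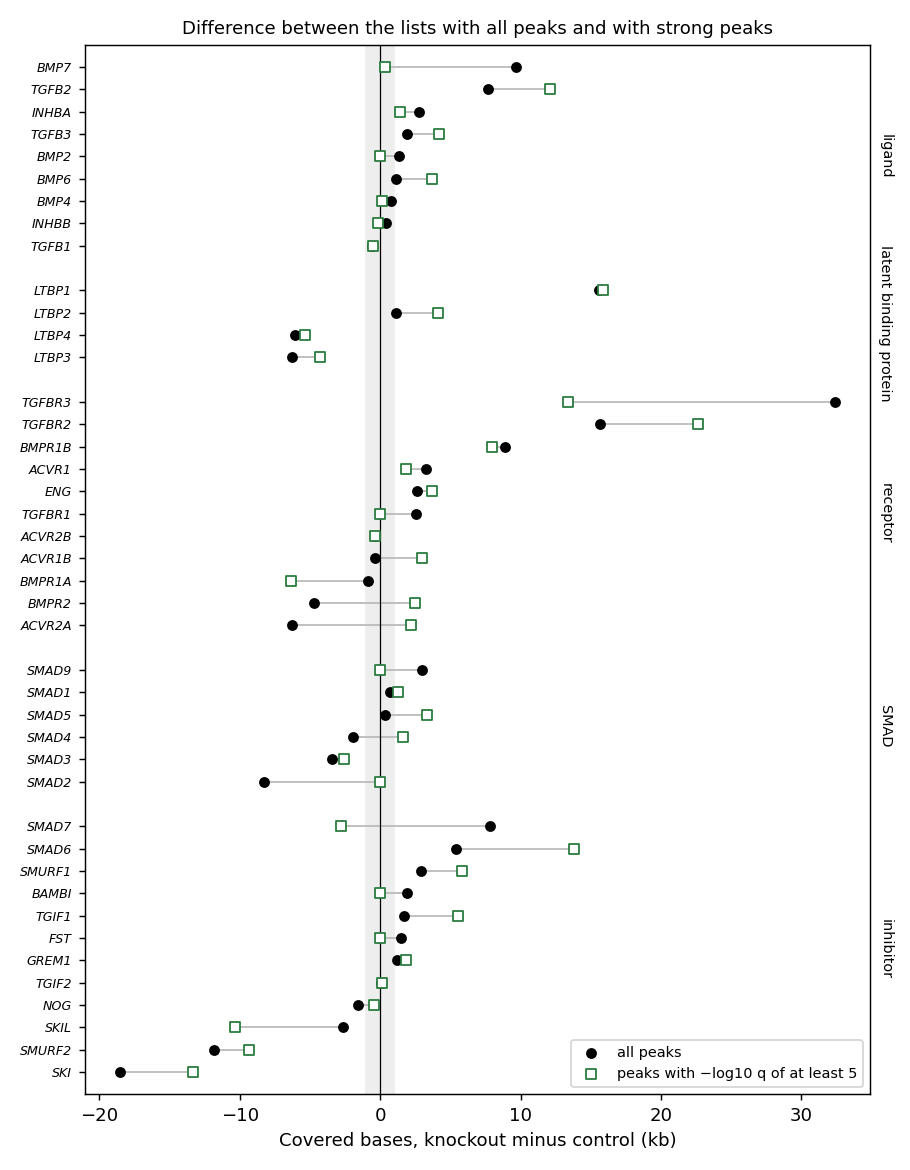
Knockout minus control covered bases (kb) for each of the 42 genes, from all peaks (black) and from peaks with −log10 q of at least 5 (green squares); the grey band spans 1000 bases either side of 0. TGFBR3 lies farthest to the right and SKI farthest to the left, and the signs of the 2 measures differ at SMAD7, ACVR2A, BMPR2 and SMAD4 among the genes outside the band.

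Of the 9 ligands, 6 were higher in the knockout list, none was lower and 3 differed by less than 1000 bases. The background for this and the following class counts is 20.2% higher and 30.0% lower of all protein-coding genes. Of genes averaging at least 5000 covered bases it is 28.8% and 45.2%. The classes are small, so their counts are a description only. Together they had 86679 covered bases (control) and 111739 (knockout), with 33 and 36 peaks. BMP7, a bone morphogenetic protein, had 9612 control and 19258 knockout bases. Its record is on chromosome 20, and the cover in the knockout list was spread over 11 peaks against 8. All 8 control peaks overlapped a knockout peak, and the median peak width was 865.5 bases (control) and 1546 (knockout). The widest were chr20:57210993-57213786 in the control list and chr20:57204888-57208053 in the knockout list. Most of the added cover at BMP7 was weak, since peaks with −log10 q of at least 5 covered 2794 control and 3166 knockout bases. TGFB2, which encodes the TGF-beta isoform best known from the eye and heart, had 50821 and 58477 bases. Its main peak was almost the same width in both lists (35875 and 36175 bases), with a fold enrichment of 4.51 (control) and 3.64 (knockout), so with fold of at least 4 the direction turned, to 35875 control and 0 knockout bases.

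INHBA, which encodes the activin A subunit, had 2681 control and 5442 knockout bases and shared none, alone among the 40 genes with a peak in both lists. The control list had a 2214-base peak whose near edge lay 1405 bases upstream of the start site at chr7:41703090 on the minus strand. That peak lay partly inside the gene record, which runs to chr7:41705406. The other control peak, of 467 bases, lay downstream of the start. The knockout list had 3 peaks downstream of the start, of 2621, 1374 and 1447 bases. The last of these, chr7:41684808-41686254, was the strongest, with −log10 q of 5.36, and lay 1139 bases from the nearest control peak. TGFB3, another TGF-beta isoform, had 2264 control and 4175 knockout bases. Much of that cover came from a knockout peak without a control counterpart, chr14:75985336-75990125, 4790 bases wide and with −log10 q of 8.60. Its midpoint lay 4720 bases upstream of the TGFB3 start, and it overlapped the record of the neighbour IFT43, an intraflagellar transport gene. With the record alone as the window TGFB3 had fewer knockout bases, 1499 against 2264.

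BMP2 and BMP6 are BMP ligands with roles in bone and iron control. BMP2 had no control base and 1343 knockout bases, in 1 peak with −log10 q of 2.15, and the nearest control peak was 603666 bases away. BMP6 had 7230 and 8380 bases. At TGFB1 (9824 control and 9234 knockout bases), INHBB (2859 and 3258) and BMP4 (1388 and 2172) the lists differed by less than 1000 bases. TGFB1 encodes the main TGF-beta isoform of most tissues, INHBB the activin B subunit and BMP4 a close relative of BMP2.

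The 4 latent binding proteins split evenly: LTBP1 and LTBP2 were higher and LTBP3 and LTBP4 lower. LTBP1, which tethers latent TGF-beta to the extracellular matrix, had 29389 control and 44958 knockout bases. All 15 control peaks overlapped a knockout peak, and 5 of the 19 knockout peaks had no control counterpart. The strongest of those 5 was chr2:33236151-33238908, with −log10 q of 4.24. The widest control peak at LTBP1, chr2:33130534-33135955, was 5422 bases, and the widest knockout peak, chr2:33104104-33111716, was 7613. The strong peaks showed the same direction, with 19606 and 35500 bases. At LTBP2, which binds matrix fibrils but not latent TGF-beta, the lists barely parted, with 26554 control and 27694 knockout bases. Its direction turned with the window, the fold threshold and the merging distance, so no direction is drawn for it.

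LTBP3 had 15249 control and 8984 knockout bases, and every knockout base there lay inside a control peak. The main peak spanned the start site in both lists, with 11915 bases in the control list (chr11:65550502-65562416) against 7603 in the other. A second control peak, chr11:65546039-65547424, had no knockout counterpart, and its −log10 q of 4.75 was the highest among control peaks of the 42 genes without one. LTBP4 had 15299 and 9196 bases. The LTBP4 window also holds part of SHKBP1, and 17 of the 42 windows hold part of another protein-coding record, so some of the cover counted may belong to a neighbour.

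Receptors had the largest difference of the 5 classes in summed bases, 209617 (control) and 262466 (knockout). Of 11, 6 were higher (TGFBR3, TGFBR2, BMPR1B, ACVR1, ENG and TGFBR1), 2 lower (ACVR2A and BMPR2) and 3 within 1000 bases. TGFBR3 encodes betaglycan, the co-receptor that presents TGF-beta to its signalling receptors and inhibin to activin receptors. It had 54782 control and 87164 knockout bases, the largest difference among the 42 genes. Knockout peaks overlapped 20 of the 21 control peaks, and the median peak width was 2086 bases (control) and 3652 (knockout). The widest was 8609 bases in the control list, chr1:91729881-91738489, and 12120 in the knockout list, chr1:91802975-91815094. The RefSeq start at chr1:91886151 lies inside the gene record, which runs on upstream to chr1:91906002. Between these, the peak chr1:91888996-91897400 was 8405 bases wide with −log10 q of 18.3 in the knockout list, and 3756 bases with 12.8 in the control list. Farther up, still inside the record, the knockout peak chr1:91899354-91903052 was 3699 bases wide with −log10 q of 21.6. The control peak there was 2022 bases wide with 7.99. A knockout peak with no control counterpart, chr1:91886498-91886989, ended 347 bases short of the start, where the nearest control peak was 1757 bases away.

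TGFBR2, the type II receptor for TGF-beta, had 51315 control and 66973 knockout bases. The gap was spread over several peaks that were wider in the knockout list. The widest was 23287 bases wide for the control (chr3:30609205-30632491) and 31044 for the knockout (chr3:30609077-30640120), where the knockout peak also took in a separate 1523-base control peak. Farther into the gene a 14160-base knockout peak lay over control peaks of 6940 and 4060 bases, and the last peak was 11497 bases (control) and 17567 (knockout). No peak at TGFBR2 was confined to 1 list. The direction held for strong peaks (41724 and 64389 bases) but not for fold enrichment of at least 4, where the knockout list had no such peak and the control list 18437 bases. BMPR1B, a type I BMP receptor, had 20530 and 29448 bases, in 12 control and 16 knockout peaks. Around the internal start whose promoter is printed above, the knockout list had a 2354-base peak, chr4:94994941-94997294, with −log10 q of 2.90, and the nearest control peak was 54665 bases away.

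ENG encodes endoglin, a TGF-beta and BMP co-receptor best known from endothelium, and had 9316 control and 11919 knockout bases. At its start site a 683-base control peak with −log10 q of 2.00 stood beside a 3368-base knockout peak with 8.56. That knockout peak also overlapped a 1205-base control peak with 1.68, and control peaks covered 45.2% of it. With fold of at least 4 ENG turned, to 4128 control and 0 knockout bases. ACVR1, a type I receptor for BMPs and activins, had 15285 and 18578 bases. One knockout peak inside it, chr2:157784505-157785801, had −log10 q of 5.86 and no control counterpart. With fold of at least 4 ACVR1 turned too, to 6406 control and 4575 knockout bases. TGFBR1, the type I receptor that partners TGFBR2, had 5013 and 7563 bases.

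ACVR2A, a type II activin receptor, had 10797 control and 4534 knockout bases. Of its 7 control peaks, 5 had no knockout counterpart, but these were weak, and the peak beside the start ran the other way in strength. There the control peak was 5755 bases wide with −log10 q of 3.55, and the knockout peak 2191 bases wide with 8.29. BMPR2, the type II BMP receptor, had 16775 and 12044 bases over all peaks and 2923 and 5422 over strong ones. The ACVR2A and BMPR2 contrasts thus depended on whether weak peaks were counted. BMPR1A (15463 control and 14621 knockout bases), ACVR1B (4700 and 4336) and ACVR2B (5641 and 5286) differed by less than 1000 bases. Strong peaks covered 7061 control and 682 knockout bases at BMPR1A, a type I BMP receptor, and 0 and 2974 at ACVR1B, the type I activin receptor.

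**Figure D3:**
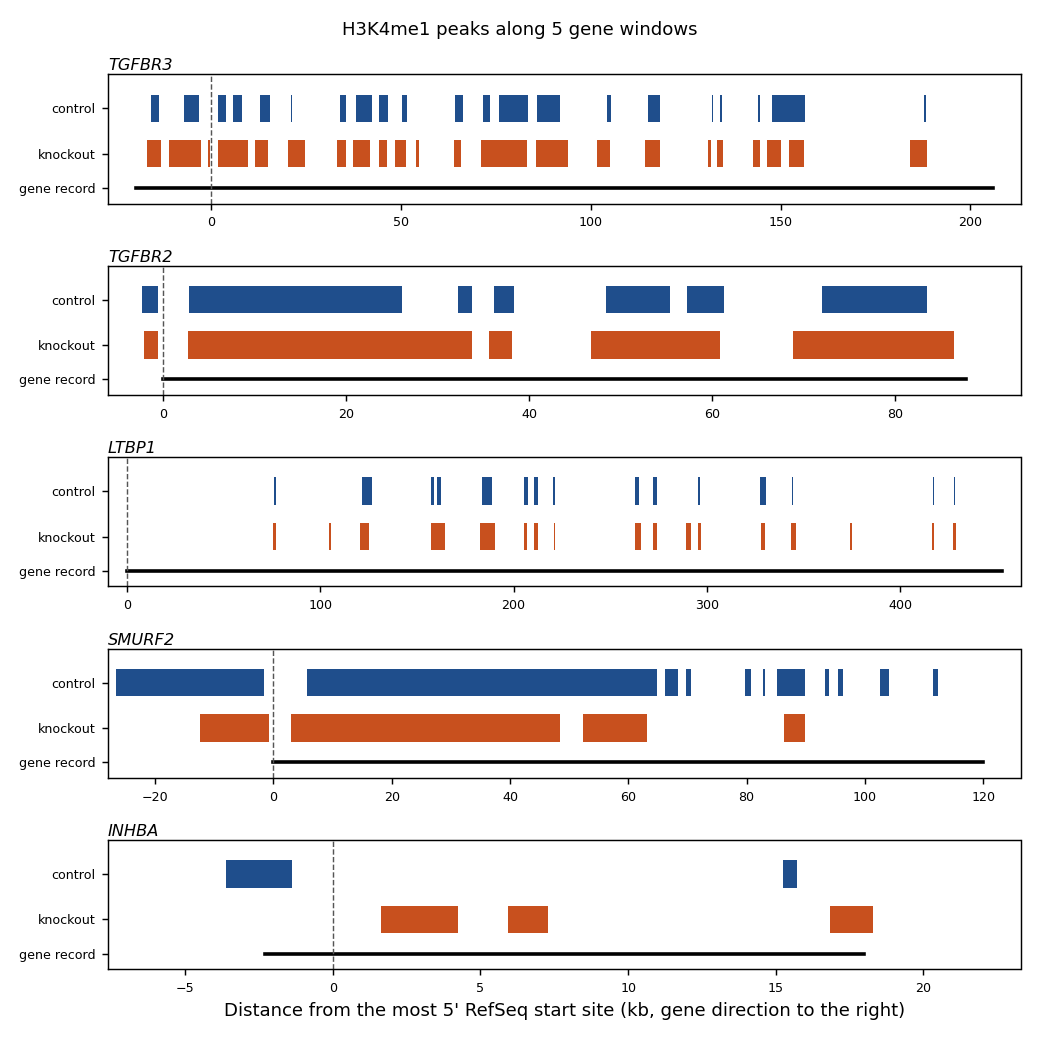
Peaks of the control and knockout lists at TGFBR3, TGFBR2, LTBP1, SMURF2 and INHBA, placed by distance (kb) from the most upstream RefSeq start site in the direction of transcription; each bar is 1 peak drawn to scale. Every bar at TGFBR2 and most bars at TGFBR3 and LTBP1 overlap a bar of the other list, and several are longer in the knockout list. At INHBA no bar overlaps one of the other list.

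Of the 6 SMADs, 1 was higher (SMAD9), 3 lower (SMAD2, SMAD3 and SMAD4) and 2 within 1000 bases (SMAD1 and SMAD5). The balance turned with strong peaks, to 3 higher and 1 lower, beside 26.7% and 17.7% of all protein-coding genes. The summed bases turned too, from 155146 control and 145510 knockout bases over all peaks to 110739 and 114423 over strong ones. SMAD3, the DNA-binding effector of TGF-beta and activin, was the most heavily marked gene of the 42, with 108725 control and 105312 knockout bases, or 77.9% and 75.5% of its window. Nearly all of it came from peaks with −log10 q of at least 5, with 107002 and 104409 bases. The widest SMAD3 peak was chr15:67069249-67125095 in the control list (55847 bases, −log10 q 13.5) and chr15:67068258-67162475 in the knockout list (94218 bases, 12.6). Here the lists differed more in where a long domain was split than in its extent. SMAD2, the other receptor SMAD of TGF-beta and activin, had 16211 and 7934 bases, all from weak peaks. Of its 5 control peaks, 2 had no knockout counterpart, among them chr18:47896636-47900296 with −log10 q of 2.17. SMAD4, the shared partner, had 14768 and 12802 bases over all peaks but 0 and 1655 over strong ones.

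SMAD9, a BMP receptor SMAD, had 786 control and 3740 knockout bases. The difference was a 2708-base knockout peak over the start site, chr13:36918094-36920801, with −log10 q of 2.77, 44663 bases from any control peak. Over all peaks the other BMP receptor SMADs barely differed, with 7645 control and 8371 knockout bases at SMAD1 and 7011 and 7351 at SMAD5. Strong peaks covered 3737 control and 5001 knockout bases at SMAD1, and 0 and 3358 at SMAD5. Place differed as well at SMAD5, where a knockout peak beside the gene, chr5:136131693-136132466, had −log10 q of 4.84 and no control counterpart.

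Among the 12 inhibitors 7 were higher and 4 lower, and the sum was smaller in the knockout list, 214794 bases against 226823. The nuclear co-repressors and the ubiquitin ligases each had members in both directions. SKI, a co-repressor that binds SMAD proteins, had 44597 control and 26087 knockout bases, the largest difference downward. Its widest control peak, chr1:2232245-2247547, was 15303 bases long, and in the knockout list the same stretch held separate peaks of 4656 and 4698 bases. The widest knockout peak, chr1:2287166-2294310, was 7145 bases. The strong SKI peaks showed the same direction, with 29849 and 16499 bases. SKIL, its close relative, had 13486 and 10843 bases over all peaks and 10979 and 633 over strong ones, but 0 and 633 with fold of at least 4.

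SMURF2 and SMURF1 are ubiquitin ligases that target SMADs and receptors. SMURF2 had 75763 control and 63945 knockout bases, in 11 control and 4 knockout peaks, and 8 of the control peaks had no knockout counterpart. The main control domain, chr17:64597468-64656650, was 59183 bases wide, and knockout peaks covered 90.4% of it. In the knockout list this stretch held separate peaks of 10713 bases (chr17:64599206-64609918) and 45426 bases (chr17:64613847-64659272). SMURF1 went the other way, with 44170 and 47069 bases, but the difference was 286 bases when both lists were merged alike, and with fold of at least 4 it turned, to 34483 and 20333. TGIF1, a homeodomain co-repressor, had 8902 and 10599 bases, and it too lost its call and changed sign with equal merging. Its relative TGIF2 had 5160 and 5237 bases.

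SMAD6 and SMAD7 are the inhibitory SMADs, which the pathway itself induces. SMAD6 had 14900 control and 20302 knockout bases, and strong peaks covered 3247 and 17055. Much of this was a single knockout peak inside the gene, chr15:66758379-66767655, 9277 bases wide with −log10 q of 13.5, over a stretch where the control list had peaks of 1720 and 1019 bases with values of 1.96 and 1.67. SMAD7 had 12520 and 20354 bases, but strong peaks covered 2768 control and 0 knockout bases, so its added cover was weak. The peak across an internal SMAD7 start was 8834 bases wide in the knockout list, where the control list had peaks of 4303 and 2078 bases.

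The secreted and membrane inhibitors had few covered bases. As a share of the window, cover was 28.3% (control) and 15.3% (knockout) at NOG and 18.3% and 30.9% at BAMBI. At GREM1 it was 3.06% and 6.20%, and at FST 0% and 8.93%. NOG, which encodes the BMP trap noggin, had 3370 control and 1818 knockout bases, all of them in the flanks of the record. GREM1, the BMP trap gremlin, had 1135 and 2300 bases, and its peak inside the gene had −log10 q of 2.18 (control) and 7.89 (knockout). FST, the activin trap follistatin, had no control base and 1474 knockout bases, in 1 peak with −log10 q of 1.59, and the nearest control peak was 9953 bases away. BAMBI, a pseudoreceptor without a kinase domain, had 2820 and 4766 bases. Its knockout peak covered the start site, and the control peak began 275 bases from it.

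Most peaks in these windows had a counterpart in the other list. Of 239 control peaks, 54 had no overlap with a knockout peak, which is 22.6% (95% exact binomial interval 17.5 to 28.4%), against 28.2% of all control peaks. Of 223 knockout peaks, 48 had none with a control peak, which is 21.5% (16.3 to 27.5%), against 21.3% of all knockout peaks. The intervals cover counting error over peaks only. Peaks without a counterpart were short, with median widths of 752 bases (control) and 839 (knockout), and weak, with median −log10 q of 1.60 and 1.94. At −log10 q of at least 5 none of the 66 control peaks stood alone, and of the 89 knockout peaks 3 did (3.37%), near the 3.23% of strong control and 2.77% of strong knockout peaks over the genome. Those 3 are the peaks at TGFB3, ACVR1 and INHBA described above.

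By class, the peaks without a counterpart had different leading genes in each list. Among ligands, BMP6 added a knockout peak with −log10 q of 3.47, and the strongest control ones were at INHBA (1.98), BMP6 (1.97) and TGFB2 (1.61). Among latent binding proteins, LTBP1 (2.92) and LTBP4 (2.80) had further knockout ones, and the control ones after LTBP3 were at LTBP2 (1.74) and LTBP4 (1.38). Among receptors, the knockout peaks after ACVR1 were those at TGFBR3 (3.65) and BMPR1B, and the control ones were at BMPR2 (chr2:202510655-202511825, 4.24), ACVR1 (3.50) and ACVR1B (2.90). Among SMADs, a further knockout peak at SMAD5 had 1.70, and the control ones after SMAD2 were at SMAD5 (1.98) and SMAD3 (1.73). Among inhibitors, the strongest were knockout peaks at GREM1 (chr15:32743410-32743876, 4.09), TGIF2 (3.60) and SMAD7 (3.43), and control peaks at SKI (2.95 and 2.69) and SMAD6 (2.67).

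Most of the cover lay inside the genes, which also make up most of the summed window length. No preference for gene bodies is therefore read from it. The windows of the 38 genes with a start site and strand were divided at the most upstream start site and at the gene end. Between these they held 647027 control and 707270 knockout bases, upstream of the start 50959 and 59175, and downstream of the gene 9191 and 10390. The upstream part is more than the flank where the record runs past the start site. At TGFBR3 all of it, 5778 control and 12596 knockout bases, lay inside the record. At the most upstream start site itself cover was sparse, since a peak lay over the start of 5 genes for the control (LTBP3, LTBP2, TGIF1, TGFBR1 and ENG) and of 7 for the knockout, which added SMAD9 and BAMBI. A peak lay within 2000 bases of the start at 29 (control) and 32 (knockout) of the 38 genes, and the median distance to the nearest peak was 1296.5 and 736.0 bases. Just downstream of the start the pathway genes were less often inside a peak than protein-coding genes at large, and farther in more often. At 125 bases downstream the shares were 13.2% (control) and 18.4% (knockout), against 14.2% and 24.1% of 15811 protein-coding genes. At 1125 bases they were still 13.2% and 18.4%, against 32.2% and 38.4%. The order turned by 2125 bases, with 39.5% and 52.6% against 39.0% and 36.1%. The knockout share was highest at 3375 bases, where 52.6% of the 38 genes were inside a control peak and 60.5% inside a knockout peak, against 29.4% and 24.0% of protein-coding genes. Upstream the order was not the same. At 875 bases upstream the shares were 26.3% (control) and 36.8% (knockout), against 28.8% and 30.8%. At 2125 bases upstream they were 39.5% and 28.9%, against 21.3% and 19.6%.

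**Figure D4:**
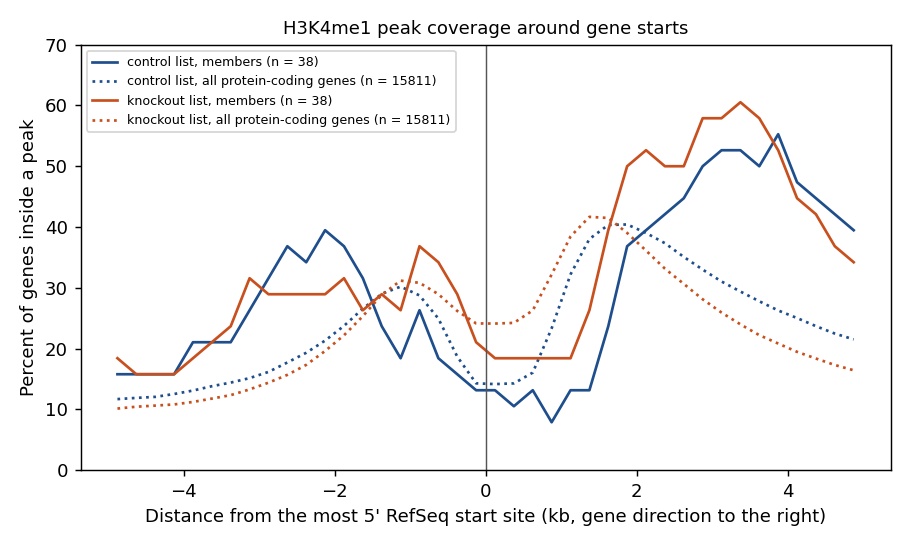
Percent of genes inside a peak by distance (kb) from the most upstream start site in the direction of transcription, for the 38 pathway genes and for 15811 protein-coding genes in each list. Downstream of the start the pathway genes lie below the others at 1125 bases (13.2% and 18.4% against 32.2% and 38.4%) and above them at 3375 bases (52.6% and 60.5% against 29.4% and 24.0%).

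The input background behind a peak, worked out from the authors' pileup and fold enrichment, differed between the lists, with medians of 3.70 and 4.61 over all peaks and a knockout to control ratio of 1.25. Around each gene, within 500000 bases on either side, that ratio was set relative to the genome's. It lay between 0.871 and 1.09 at 35 genes, above 1.2 at SMAD9 (1.53), BMP6 (1.39), BAMBI (1.39) and TGFB2 (1.36), and below 0.833 at SKIL (0.695) and ACVR2A (0.802). The 4 genes with raised background were all higher in the knockout list and the 2 with lowered background both lower. The part of the background in these 6 differences was not tested. Without them 18 of 36 genes were higher and 9 lower. BMP2 had no control peak nearby and therefore no value. SMAD2, SMAD4 and SMAD7, all on chromosome 18, had control medians of 2.41, 2.41 and 2.42, close to the control list's lowest value of 2.40. Their knockout medians were 2.62, 2.67 and 2.83, beside a lowest value of 2.60 in the knockout list.

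**Figure D5:**
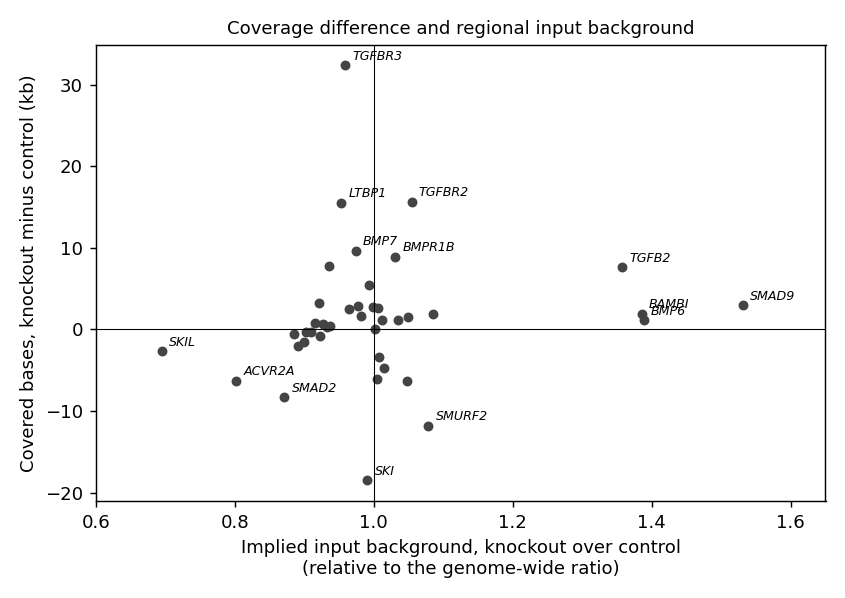
Knockout minus control covered bases against the implied input background around each gene, as the knockout to control ratio relative to the genome's; each point is 1 gene with a value. The 4 points beyond 1.2 lie above 0 and the 2 below 0.833 lie under it, while the largest differences, at TGFBR3 and SKI, fall near a ratio of 1.

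Further genes of the pathway were read from a list of 85, of which 27 were higher, 24 lower and 34 within 1000 bases or without cover, with a median difference of 0. Of all protein-coding genes 20.2% were higher and 30.0% lower, which is also the background for the class counts below. The cover of the 85 genes summed to 746674 control and 760038 knockout bases. Among 14 other secreted inhibitors 5 were higher and none lower, led by BMPER (14723 control and 38894 knockout bases), a modulator of BMP ligands. Of 24 other ligands 5 were higher and 6 lower, with BMP5 (1923 and 17213) and BMP8A (4604 and 7207) leading one way and INHBE (7475 and 3584) and INHBC (5264 and 2357) the other. Of 9 genes for latent TGF-beta release and matrix 3 were higher, among them the fibrillin FBN2 (8876 and 12228) and the integrin subunit ITGAV (5696 and 8385), and 1 lower, NRROS (3030 and 1562).

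Of 7 other receptors and co-receptors 4 were lower, led by NEO1 (9523 control and 3432 knockout bases) and RGMB (14618 and 9551), both of which take part in BMP signalling, and 1 higher, ACVR1C (534 and 2559). Regulators of receptors and SMADs were more often lower, 9 of 16 against 5 higher, and lower was also the commoner call over all protein-coding genes. The ubiquitin ligase NEDD4L (133954 and 109493) and the phosphatase PPM1A (15462 and 2745) led downward, and the kinase HIPK2 (71083 and 77739) and PMEPA1 (10106 and 14500), a TGF-beta target that dampens SMAD activation, upward. Of 15 known transcriptional targets 8 were higher and 4 lower. Those leading upward were ID2 (4256 and 8710), a BMP target, and SNAI2 (2279 and 6120), a mesenchymal transcription factor. Those leading downward were CCN2 (7509 and 5899), a matrix-associated growth factor gene, and the cell cycle inhibitor CDKN1A (6496 and 5197).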

How the data were processed

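H3K4me1 ChIP-seq was done in control and ARID1A knockout MDA-MB-231 cells, with 8 samples in 4 groups of 2 (immunoprecipitate and input per genotype) taken from the titles. The tools were Bowtie2 2.3.5.1 and MACS2 2.2.6 and the build hg38, per the submitters' processing notes; their settings are not given. For each genotype the authors deposited a single peak list, treated here as pooled. Per the file headers, each deposited peak has a position, a pileup (a signal of stacked fragments), a fold enrichment (a ratio over input) and −log10 p and q values. These are the authors' values for the peak and only describe, rank or filter peaks within a list. The lowest −log10 q was 1.01 in each list.

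From chromosomes 1 to 22 and X, 82994 control and 73600 knockout peaks entered. Covered bases were counted with Python 3.11.15, numpy 2.4.6 and pandas 2.3.3, and exact intervals came from scipy 1.17.1; the counting was tested on simulated peaks. Peaks were shared if they overlapped by at least 1 base. Implied background was (pileup + 1) / fold − 1, which assumes the default MACS2 pseudocount. Gene records and promoters are RefSeq, GRCh38.p14.

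Genes named were all those past 1000 bases or at 0 in one list, the 3 strongest single-list peaks per class and list, the widest peaks at the 6 genes with the largest differences, and up to 2 further pathway genes per class and direction. Some genes that this rule or the marker lists name are not reported here. Other genes and peaks were chosen after their values were seen, as were the SMAD9 and BAMBI promoters, printed in place of LTBP4 and ACVR1 because a peak covers them whole. The members and lists were chosen with earlier results of these data known.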

Additional observations from a re-analysis of the deposited data

How the results depend on the processing

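No paired analysis was possible because each genotype has 1 deposited list with no value per replicate, and no replicate could be left out. The knockout to control ratio of summed covered bases was 1.08 and reversed to 0.708 with fold enrichment of at least 4 and to 0.933 when peaks were counted; it was 1.06 to 1.16 otherwise. The 22 higher genes became 9 with fold of at least 4 (beside 14.5% of all protein-coding genes) and 14 with a difference of 2000 bases. The 11 lower genes became 18 when peaks were counted and 13 with fold of at least 4 (beside 19.4%). The share of all protein-coding genes was not computed at 2000 bases or for peak counts, so nothing is read from those counts. Shares of peaks without a counterpart, control and knockout, were 29.3% and 36.3% with an overlap of at least 50%, 0% and 3.37% with −log10 q of at least 5, and 0% and 0% with fold of at least 4. Single genes reversed as follows, in knockout minus control bases. With fold of at least 4: TGFB2 -35875, TGFBR2 -18437, SMURF1 -14150, ENG -4128, SMAD7 -2768, ACVR1 -1831, LTBP2 -1384, ACVR2A 2191, SKIL 633 and BMPR2 601. With −log10 q of at least 5: SMAD7 -2768, ACVR2A 2191, BMPR2 2499 and SMAD4 1655. With no flank: TGFB3 -765 and LTBP2 -643. With flanks of 50 kb: LTBP2 -1421, BAMBI -985 and SMAD4 456. With equal merging: TGIF1 -969 and LTBP2 -197. The causes were not tested. Over these settings and flanks of 10 kb, 10 of the 33 called genes kept their direction and call in all 6: BMPR1B, GREM1, LTBP1, LTBP3, LTBP4, SKI, SMAD3, SMAD6, SMURF2 and TGFBR3. Depth is unknown, and peaks near the threshold are the least certain.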
